A study of Mus musculus with 8 samples.

Results

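Serpins are a family of proteins with a shared fold, most of which inhibit proteases. A target protease cuts an exposed loop of the serpin, the loop inserts into the body of the molecule, and the protease stays trapped in a covalent complex. Clade b serpins lack a classical signal peptide, work mostly inside cells and are prominent in stratified epithelium and in leukocytes. Most other clades are secreted and act on clotting, complement, plasmin and leukocyte elastase.

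The family was followed in mouse skin tumour cells sorted by FACS on the epithelial surface protein Epcam. Members were the genes whose single symbol in the array's platform annotation begins with Serpin, a clade letter from a to i and a digit. Membership thus went by name and not by a measured value. The family and the gene lists used below were chosen with earlier results of these data known. This gave 40 genes of 17098 measured, read by 55 probe sets, of which the one with the highest mean over all arrays stood for its gene. Of the 40, 17 belonged to clade b, with 7 on chromosome 1 and 10 on chromosome 13, and 23 to other clades, with 15 clade a genes on chromosome 12. Clade e was not analysed here.

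RNA was profiled on 8 Affymetrix mouse PM strip arrays, in 4 groups of 2. GOF papilloma, labelled NR2F2 GOF, overexpressed NR2F2 and was set against control papilloma, labelled NR2F2 WT. LOF carcinoma, labelled NR2F2 KO, was skin squamous cell carcinoma of K5CreER;NR2F2fl/fl mice, in which the keratin 5 promoter drives an inducible Cre, and was set against control carcinoma, Cre-negative and labelled NR2F2 WT. NR2F2, also called COUP-TFII, belongs to the orphan nuclear receptors and acts as a transcription factor. Papillomas of skin are benign, and squamous cell carcinomas are malignant. The labels used here do not give age, treatment, what drives the overexpression, or whether replicate arrays came from different mice, so the p-values rest on the spread between arrays, which may be technical.

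Values are log2 signals made with RMA, which corrects, normalizes and summarises the probes of a probe set. Array medians were 3.12 to 3.16 in papilloma and 5.08 to 5.15 in carcinoma, so levels are not compared between the tumour types. They are not compared between genes either, since each probe set has its own brightness. The background of an array was its brightest signal among 44 control probe sets that match no mouse transcript, at 3.09 to 3.33 in papilloma and 4.95 to 5.01 in carcinoma. Nr2f2 had 11.43 and 11.47 in GOF papilloma against 2.80 and 2.55 in control papilloma, and 4.774 and 4.996 in LOF carcinoma against 7.93 and 8.14 in control carcinoma. Epcam was bright on every array, at 9.004 and 8.677 in GOF papilloma against 10.17 and 10.57 in control papilloma, and at 11.51 and 11.44 in LOF carcinoma against 11.79 and 11.36 in control carcinoma. Control carcinoma replicate 2 stood apart from replicate 1 in the markers of other cell types that are given below. Values without it are given beside several of the carcinoma differences, but not all.

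No Serpin gene passed limma's test in either tumour. At an adjusted p of 0.05 over all genes, 0 of 40 members were called in GOF papilloma, where 0.673% of all genes were, and 0 of 40 in LOF carcinoma, where 0.0117% of all genes were. The test of the difference between the GOF and LOF effects called 0 of 40 members and 0.0643% of all genes. At an unadjusted p under 0.05 there were 5 members in the GOF comparison (12.5%, against 15.4% of all genes), namely Serpinb3a, Serpinb9c, Serpina1b, Serping1 and Serpini2. In the LOF comparison there were 4, namely Serpinb3a, Serpinb6b, Serpinb8 and Serping1, against 12.3% of all genes. Serpinb9c and Serpini2 were below background on every papilloma array, and Serpinb3a on every carcinoma array. Those differences lie between background readings. With 2 arrays against 2, an exact permutation test can give no p below 0.333.

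A descriptive rule, with no test, took the genes whose 4 array pairs each showed a 1.5-fold or larger gap one way, with the brighter group above background on both arrays. By this rule Serping1 and Serpina1b were higher in GOF papilloma, and Serpinb6b and Serpina3n were lower in LOF carcinoma. The rule took 5.01% of all genes in papilloma (3.21% higher in GOF) and 2.33% in carcinoma (1.18% lower in LOF), beside 2 of 40 members (5%) in each comparison. In papilloma that share was near the background over both directions, and in carcinoma it was above it, in each case on 2 genes, and nothing particular to the family is read from it. The median log2 fold change of the 40 members was -0.0002 in GOF papilloma and -0.06 in LOF carcinoma, beside 0.01 and -0.002 over all genes. For clade b the medians were -0.003 and -0.18, and for the other clades 0.003 and -0.009.

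**Figure D1:**
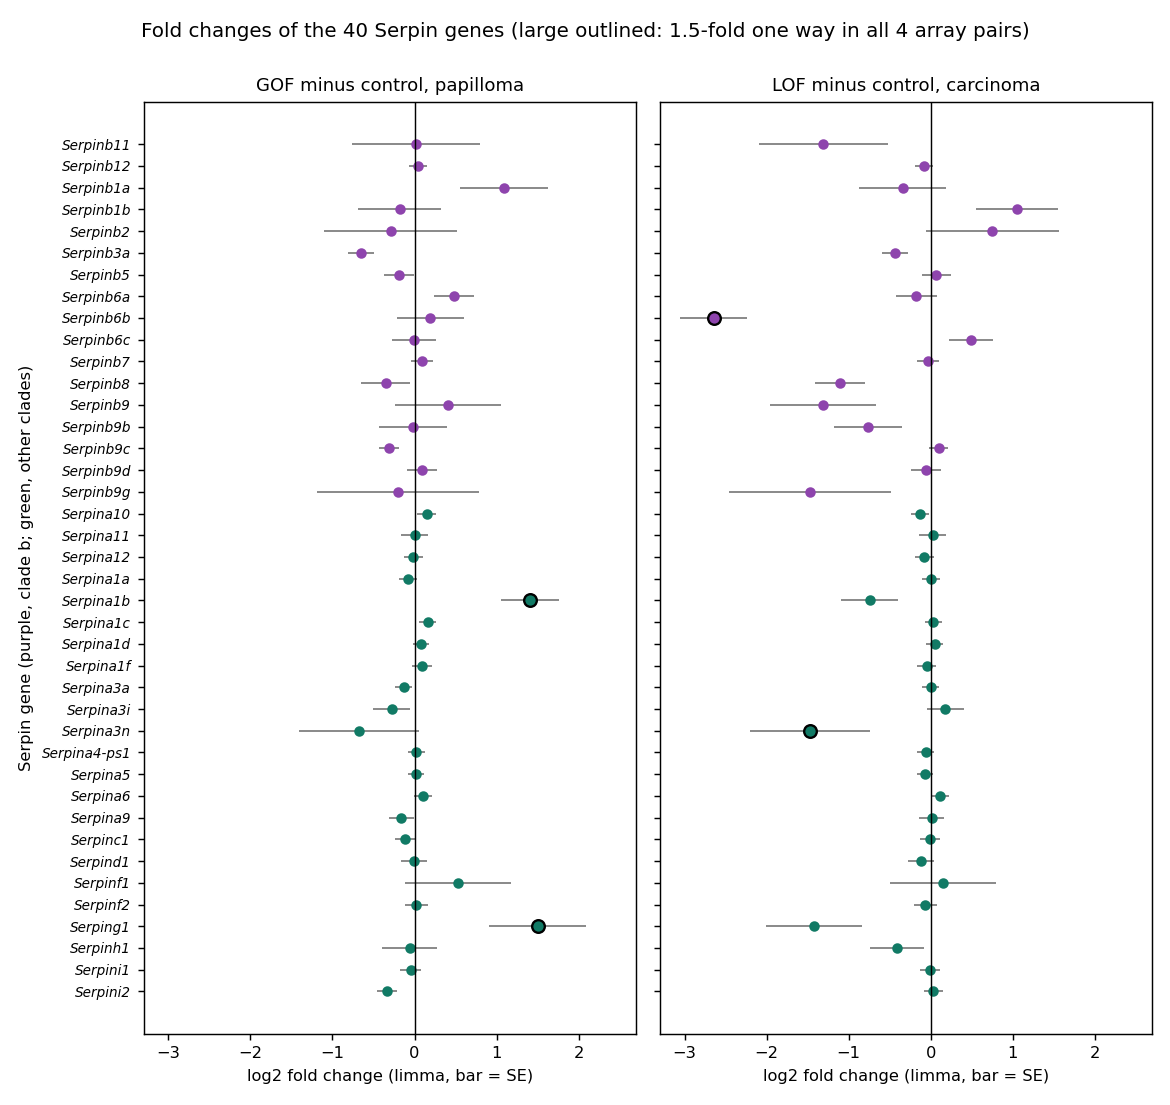
Log2 fold change (x axis, with the standard error from limma as a bar) of each of the 40 Serpin genes (y axis; purple, clade b; green, other clades), as GOF minus control in papilloma on the left and LOF minus control in carcinoma on the right. Large outlined points mark the genes at least 1.5-fold apart one way in all 4 array pairs, which are Serpina1b (1.41) and Serping1 (1.5) on the left and Serpinb6b (-2.65) and Serpina3n (-1.47) on the right, and no point passed limma's test.

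Of the 40 members, 9 were above background on all 8 arrays, 15 on some and 16 on none. The 9 were Serpinb1a, Serpinb2, Serpinb5, Serpinb6a and Serpinb8 of clade b, and Serpina3n, Serpinf1, Serping1 and Serpinh1 of other clades. Within papilloma 12 members were above background on all 4 arrays, 8 of them in clade b. Within carcinoma there were 10, with 5 in clade b. The 16 genes below background on every array included liver products that are secreted into plasma, such as Serpinc1 (antithrombin), Serpind1 (heparin cofactor), Serpinf2 (antiplasmin) and Serpina6 (corticosteroid-binding globulin), and also Serpini1 (neuroserpin) and Serpinb7. The others were Serpinb9d, Serpina1a, Serpina1c, Serpina1d, Serpina1f, Serpina3a, Serpina4-ps1, Serpina5 (protein C inhibitor), Serpina10 and Serpini2. Their log2 fold changes ran from -0.34 to 0.16 in GOF papilloma and from -0.13 to 0.11 in LOF carcinoma, which are differences between background readings. Of the 15 genes above background on some arrays, Serpinb12, Serpinb9c, Serpina9 and Serpina12 (vaspin) stayed near it. Serpina3i reached 3.85 on control papilloma replicate 2. Serpina11 was above background on all 4 carcinoma arrays, at 5.57 and 5.50 in LOF against 5.57 and 5.46 in control. All these genes had log2 fold changes of -0.31 to 0.04 in GOF papilloma and -0.09 to 0.18 in LOF carcinoma.

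Clade b genes lie in a cluster on chromosome 1 and a cluster on chromosome 13, and the counts of some short motifs in their promoters differed between the clusters. RefSeq promoter windows of assembly GRCm38.p6, from 250 bases before to 50 bases after each start, were found for 34 of the 40 members. The AP-1 site was searched as TGANTCA on both strands, a pattern that allows any base at its centre. Fos and Jun factors, which are active in epidermis, bind mainly the forms with C or G there, so a match need not be such a form. The pattern was in the windows of 6 of the 7 clade b genes on chromosome 1, but not in that of Serpinb3a. The 6 were Serpinb2, Serpinb5, Serpinb7, Serpinb8, Serpinb11 and Serpinb12. On chromosome 13 it was in 0 of the 9 that had a window. Over all 32851 windows the share was 7.81%. Among all members 10 of 34 had a match, including Serpina1a, Serpina1b, Serpina1c and Serpina1d of clade a. Over every Serpinb gene in the RefSeq table the counts were 7 of 11 on chromosome 1 and 0 of 15 on chromosome 13. The nuclear receptor half-site AGGTCA, which NR2F2 and many related receptors recognise, was in the windows of 9 of 34 members, against 16.3% of all windows. By cluster it was in 1 of 7 on chromosome 1 and 3 of 9 on chromosome 13, and over every Serpinb gene in the table in 4 of 11 and 9 of 15. A direct repeat of that half-site with 1 base between was in 0 of 34, against 0.0396% of all windows. The GAS element TTCNNNGAA, to which STAT factors bind, was in 6 of 34 (8.3% of all windows), and the TATA box TATAAA in 7 of 34 (13.6% of all windows). The letters TATAAA were in 4 of 7 windows on chromosome 1 and 1 of 9 on chromosome 13 (7 of 11 and 2 of 15 over every Serpinb gene). The GAS element was in 1 of 7 and 2 of 9. Every motif was counted on both strands and at any place in the window, so a TATAAA match need not be a TATA box. The match on chromosome 13, in Serpinb6c, lay on the opposite strand and started at 4, past the start site. Counts of members are of genes with a match in any of their windows, while the shares over all windows are per window, so the units differ. A match describes these letters and does not show that a factor binds. Serpinb8 and Serpinb11 are shown as chromosome 1 genes with 2 AP-1 matches each, and Serpinb6b as the chromosome 13 gene with the largest difference in carcinoma and no match to any of these motifs. The windows are chr1:107589756-107590055 (plus strand), chr1:107362064-107362363 (plus strand) and chr13:32965011-32965310 (plus strand), written 5′ to 3′ on the gene's strand, with AP-1 matches in capitals. The matches start at -23 and 14 from the start site in Serpinb8 and at -181 and -76 in Serpinb11. Both read TGAGTCA in Serpinb8, while those in Serpinb11 read TGATTCA and TGAATCA. The matches in Serpinb2 and Serpinb5 read TGAATCA.
Serpinb8: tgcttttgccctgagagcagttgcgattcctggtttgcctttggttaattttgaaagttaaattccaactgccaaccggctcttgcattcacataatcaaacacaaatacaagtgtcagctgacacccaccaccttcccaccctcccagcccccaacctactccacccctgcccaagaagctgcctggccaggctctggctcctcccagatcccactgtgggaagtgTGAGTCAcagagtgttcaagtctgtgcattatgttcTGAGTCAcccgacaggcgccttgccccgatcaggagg
Serpinb11: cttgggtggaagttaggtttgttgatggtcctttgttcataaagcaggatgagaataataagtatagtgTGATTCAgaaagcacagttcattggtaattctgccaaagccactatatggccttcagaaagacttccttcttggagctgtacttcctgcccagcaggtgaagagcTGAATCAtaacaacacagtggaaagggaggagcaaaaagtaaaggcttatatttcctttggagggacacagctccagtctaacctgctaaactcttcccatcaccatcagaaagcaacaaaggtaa
Serpinb6b: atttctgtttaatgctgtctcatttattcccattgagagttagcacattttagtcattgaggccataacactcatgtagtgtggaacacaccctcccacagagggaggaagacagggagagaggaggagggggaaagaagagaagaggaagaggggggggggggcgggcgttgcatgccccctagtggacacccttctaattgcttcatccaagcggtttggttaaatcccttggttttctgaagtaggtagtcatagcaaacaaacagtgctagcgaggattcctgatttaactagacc

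Of the chromosome 1 clade b genes, Serpinb2, Serpinb5 and Serpinb8 were above background on all 8 arrays, and none passed limma's test. Serpinb5 (maspin), an epithelial serpin that is not known to inhibit a protease by the usual trap, had 10.054 and 10.004 in GOF papilloma against 10.11 and 10.32 in control papilloma, and 10.91 and 10.86 in LOF carcinoma against 11.07 and 10.57 in control carcinoma. GOF arrays lay just below both control arrays, and in carcinoma the groups overlapped. The log2 fold changes were -0.19 ± 0.18 (SE, limma adjusted p = 0.713) and 0.07 ± 0.18 (adjusted p = 0.977). A second, dimmer probe set for Serpinb5 had 8.10 and 7.66 in LOF carcinoma against 7.40 and 7.15 in control carcinoma, without overlap (log2 fold change 0.60), and gave 0.07 with overlap in papilloma, so the probe sets disagreed on whether the groups overlapped. Serpinb2, the plasminogen activator inhibitor PAI-2, had 8.32 and 8.22 in GOF papilloma against 7.39 and 9.74 in control papilloma, and 9.35 and 9.36 in LOF carcinoma against 9.42 and 7.79 in control carcinoma. In both tumours the 2 control arrays were over 2-fold apart while the GOF or LOF arrays lay close together between them. Its log2 fold change in GOF papilloma was -0.29 with both control arrays, -1.47 without control papilloma replicate 1 and 0.88 without replicate 2. In LOF carcinoma it was 0.75, then 1.56 without control carcinoma replicate 1 and -0.07 without replicate 2.

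Serpinb8, which in human cells inhibits the proprotein convertase furin, was lower on both LOF carcinoma arrays than on either control. It had 7.27 and 7.91 in LOF carcinoma against 8.46 and 8.93 in control carcinoma, a log2 fold change of -1.11 ± 0.30 (SE, 2.15-fold lower), with a limma adjusted p of 0.228. The smallest gap among the 4 array pairs was -0.55 on the log2 scale, just under the 1.5-fold of the descriptive rule. Its second probe set gave -0.87. In papilloma the same gene had 6.86 and 7.22 in GOF against 7.12 and 7.67 in control, and the groups overlapped (log2 fold change -0.35 ± 0.30, adjusted p = 0.666). Serpinb3a belongs to the group whose human counterparts SERPINB3 and SERPINB4 are the squamous cell carcinoma antigens. It had 4.94 and 4.93 in GOF papilloma against 5.49 and 5.68 in control papilloma, so both GOF arrays were lower, by 0.65 ± 0.16 on the log2 scale (adjusted p = 0.126). Its other 2 probe sets gave -0.69 and -0.62, and related Serpinb3 copies may hybridize to the same probes. On the 4 carcinoma arrays it was below background. Serpinb11 had 5.17 and 5.67 in GOF papilloma against 4.84 and 5.95 in control papilloma, and the groups overlapped. In carcinoma it was above background on 1 array alone, control replicate 2, with 4.30 and 4.16 in LOF against 4.30 and 6.79 in control, and the log2 fold change of -1.31 was -0.06 without that array.

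The chromosome 13 clade b genes held the largest difference of the family in carcinoma. Serpinb6b, whose product inhibits granzyme A in the mouse, had 4.96 and 3.88 in LOF carcinoma against 6.66 and 7.48 in control carcinoma. Both LOF arrays were below background and both control arrays above it, so the gene was at least 4.27-fold lower in LOF carcinoma, with measured means of 4.42 and 7.07. Limma gave a log2 fold change of -2.65 ± 0.41 (SE), an adjusted p of 0.121 and an unadjusted p of 0.000511. Leaving out 1 array at a time gave -3.19 to -2.11. In papilloma Serpinb6b was below background on all 4 arrays. The near relative Serpinb6a, which inhibits cathepsin G, had 10.18 and 9.78 in LOF carcinoma against 10.50 and 9.81 in control carcinoma (log2 fold change -0.18 ± 0.25, adjusted p = 0.916), and 7.45 and 7.35 in GOF papilloma against 6.98 and 6.86 in control papilloma (0.48 ± 0.25, adjusted p = 0.427). Both GOF arrays were above both controls, by less than 1.5-fold in some pairs. Serpinb6c had 3.66 and 4.26 in GOF papilloma against 3.85 and 4.08 in control papilloma, and in carcinoma only LOF replicate 2 was above background.

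Serpinb9, the inhibitor of granzyme B, was close to background in papilloma, at 3.18 and 3.51 in GOF against 3.03 and 2.85 in control. In carcinoma it had 6.72 and 4.51 in LOF against 7.06 and 6.79 in control. Both LOF arrays were lower, but LOF replicate 1 came within 0.07 of the nearest control on the log2 scale. The log2 fold change of -1.31 ± 0.64 (limma adjusted p = 0.496) was -2.42 without LOF replicate 1 and -0.20 without LOF replicate 2. Its second probe set was below background and gave -0.22. The granzymes themselves, Gzma and Gzmb, and the T cell receptor genes Cd3e and Cd3g were below background on all 8 arrays. So was Nkg7. The other lymphocyte markers of the list given below, Cd4, Cd8a and Cd79a, were above background on every carcinoma array and on some papilloma arrays. Serpinb1a, an inhibitor of neutrophil elastase and related proteases, had 8.20 and 7.85 in GOF papilloma against 6.48 and 7.39 in control papilloma. Both GOF arrays were above both controls, with a log2 fold change of 1.09 ± 0.53 (2.13-fold, adjusted p = 0.400) that was 0.64 without control papilloma replicate 1. The second probe set gave 0.88. In carcinoma Serpinb1a had 6.67 and 5.80 in LOF against 5.91 and 7.25 in control, which overlapped. Neutrophil elastase (Elane), cathepsin G (Ctsg) and proteinase 3 (Prtn3) were below background on every array. Of the mast cell and neutrophil markers given below, S100a8, S100a9 and Cma1 were above background on every array, and the others were not.

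**Figure D2:**
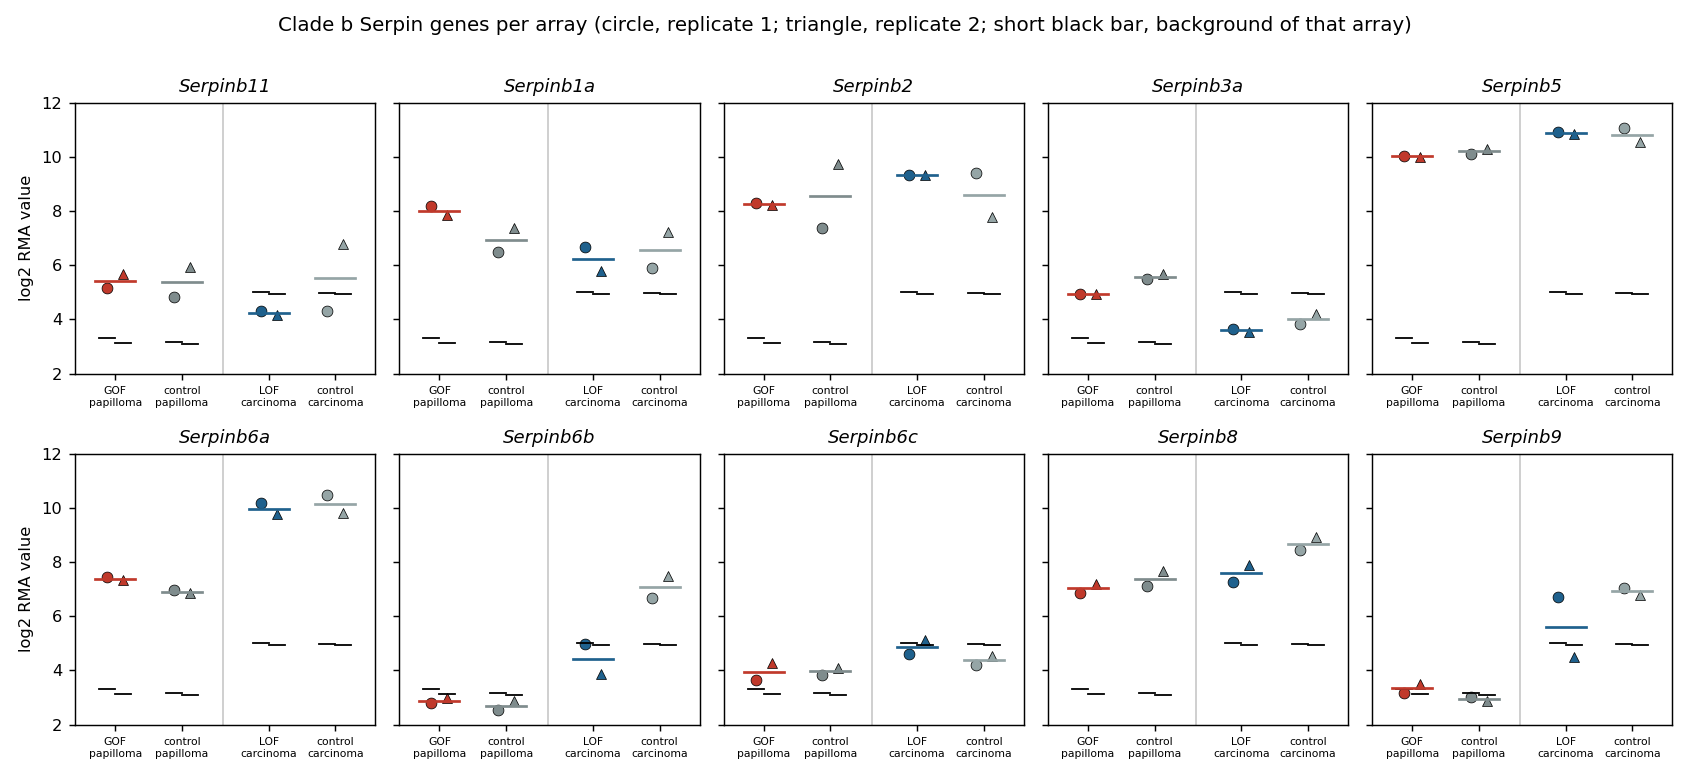
Log2 RMA value (y axis) of the 10 clade b genes with both arrays of some group above background, per array and group (x axis; circle, replicate 1; triangle, replicate 2; coloured bar, group mean; short black bar, background of that array). Both LOF carcinoma arrays of Serpinb6b (4.96 and 3.88) lie under their background bars while the controls (6.66 and 7.48) lie above, and the control arrays of Serpinb2 stand far apart in both tumours; papilloma and carcinoma panels have separate scales of signal.

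Among the secreted members, Serping1 was higher in GOF papilloma and lower in LOF carcinoma on every array. Serping1 is the C1 inhibitor, which restrains the first proteases of complement and contact activation. It had 5.07 and 5.58 in GOF papilloma against 4.13 and 3.52 in control papilloma, a log2 fold change of 1.5 ± 0.59 (SE, 2.83-fold, limma adjusted p = 0.303). In carcinoma it had 5.43 and 5.90 in LOF against 6.16 and 8.01 in control, a log2 fold change of -1.42 ± 0.59 (2.68-fold lower, adjusted p = 0.405). The groups did not overlap in either tumour. The carcinoma value was -2.34 without control carcinoma replicate 1 and -0.50 without replicate 2.

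Serpina1b is one of several near-identical mouse copies of alpha-1-antitrypsin, the main plasma inhibitor of neutrophil elastase. It had 4.18 and 3.94 in GOF papilloma against 2.68 and 2.62 in control papilloma, above background in GOF and below it in control, and so was at least 1.91-fold higher. The measured means were 4.06 and 2.65, and limma gave a log2 fold change of 1.41 ± 0.35 (SE) with an adjusted p of 0.139. The second probe set for Serpina1b gave 1.86. Both carry a suffix for probes that can cross-hybridize to related sequences, so the copy that was read is uncertain, although the probe sets for Serpina1a, Serpina1c and Serpina1d were below background on all 8 arrays. The limma call turned on the setting: the adjusted p was 0.0276 after quantile normalization, 0.0442 with the papilloma arrays alone and 0.0218 without either control carcinoma array, which changes only the shared spread, and it reached 0.470 without GOF papilloma replicate 1. In carcinoma Serpina1b had 4.23 and 4.38 in LOF against 4.47 and 5.64 in control, with control replicate 2 alone above background.

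Serpina3n, a mouse antichymotrypsin that rises in acute-phase responses, was lower in LOF carcinoma by the descriptive rule. It had 5.04 and 5.26 in LOF carcinoma against 6.07 and 7.18 in control carcinoma, without overlap, a log2 fold change of -1.47 ± 0.73 (SE, 2.78-fold lower, limma adjusted p = 0.502). The value was -2.03 without control carcinoma replicate 1 and -0.92 without replicate 2. In papilloma it had 3.70 and 4.24 in GOF against 5.77 and 3.53 in control, and the direction turned with the control array used (-0.68 with both, 0.44 without control papilloma replicate 1, -1.80 without replicate 2). The promoter windows of Serpina1b and Serpina3n are shown because these clade a genes met the descriptive rule in opposite comparisons; they lie at chr12:103738140-103738439 (minus strand) and chr12:104406458-104406757 (plus strand). Serpina1b has 1 AP-1 match, in capitals, at -240, and Serpina3n has no match to the motifs searched. The AP-1 site was also in the windows of Serpina1a, Serpina1c and Serpina1d, which were below background on every array.
Serpina1b: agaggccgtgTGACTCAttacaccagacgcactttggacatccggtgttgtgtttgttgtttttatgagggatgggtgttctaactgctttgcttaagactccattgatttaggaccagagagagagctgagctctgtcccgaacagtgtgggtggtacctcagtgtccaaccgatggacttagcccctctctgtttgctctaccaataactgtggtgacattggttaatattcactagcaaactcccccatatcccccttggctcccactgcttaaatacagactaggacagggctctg
Serpina3n: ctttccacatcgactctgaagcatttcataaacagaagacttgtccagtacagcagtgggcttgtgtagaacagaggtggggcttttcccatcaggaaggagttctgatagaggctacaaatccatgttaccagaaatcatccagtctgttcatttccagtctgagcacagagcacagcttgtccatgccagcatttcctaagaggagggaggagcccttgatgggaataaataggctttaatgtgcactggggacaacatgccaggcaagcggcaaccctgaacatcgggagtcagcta

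Most macrophage and endothelial markers were higher in GOF papilloma, as were Serping1 and Serpina1b, while other lists of non-epithelial cells moved less. The part of the markers in the results was not tested. Of 10 macrophage markers, Lyz2 rose in GOF papilloma by limma and 9 were higher by the descriptive rule, with mean log2 values of 5.50 and 6.49 in GOF against 3.26 and 3.20 in control. Of 10 endothelial markers, Egfl7, Emcn, Flt1 and Plvap rose in GOF papilloma and 9 were higher by the descriptive rule, with means of 5.21 and 5.35 in GOF against 3.52 and 3.38 in control. Fibroblast markers averaged 7.57 and 7.83 in GOF papilloma against 7.54 and 6.66 in control, with 0 of 10 past either rule. Mast cell and neutrophil markers averaged 5.22 and 5.33 against 4.71 and 4.47, with 3 of 8 higher by the descriptive rule. Lymphocyte markers were near background, at 3.03 and 3.08 against 2.94 and 2.92. Basal keratinocyte markers averaged 10.08 and 9.90 in GOF papilloma against 10.59 and 10.41 in control, and differentiated keratinocyte markers 8.07 and 8.75 against 8.11 and 8.39. By the descriptive rule 1 of 6 basal markers was lower (Col17a1, log2 fold change -1.54) and 0 were higher. Of 6 differentiated markers 1 was higher (Lor, 2.04) and 0 were lower. In bulk RNA, more cells of a type and more RNA per cell cannot be told apart. Epcam fell in GOF papilloma by 1.53 on the log2 scale (adjusted p = 0.0457).

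In carcinoma the same markers were highest on control replicate 2, and 1 marker in each of 2 lists was lower in LOF carcinoma by the descriptive rule. Lyz2, of the 10 macrophage markers, had 4.82 and 5.50 in LOF carcinoma against 6.20 and 7.36 in control carcinoma, and a log2 fold change of -1.04 without control replicate 2. Flt1, of the 10 endothelial markers, had 5.88 and 6.15 in LOF carcinoma against 7.05 and 7.19 in control carcinoma, and -1.04 without that array. Neither passed limma (adjusted p of 0.256 and 0.105). The macrophage mean was 5.28 and 5.58 in LOF against 5.43 and 6.98 in control, the endothelial mean 5.03 and 5.18 against 5.29 and 6.18, and the fibroblast mean 6.30 and 6.87 against 6.67 and 8.02. Mast cell and neutrophil markers averaged 5.57 and 5.46 in LOF against 5.43 and 6.097 in control. Lymphocyte markers averaged 4.68 and 4.79 in LOF against 4.74 and 4.88 in control, with 5 of 8 below background on all 8 arrays. Differentiated keratinocyte markers were also highest on that array, at 6.38 and 6.21 in LOF against 6.32 and 7.13 in control, while basal keratinocyte markers were at 11.67 and 11.91 against 11.90 and 11.84. Serpinb6b and Serpinb8 were lower in LOF carcinoma than on control replicate 1 as well, with log2 fold changes of -2.24 and -0.87 without control replicate 2, and the part of these markers in the carcinoma results was not tested.

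**Figure D3:**
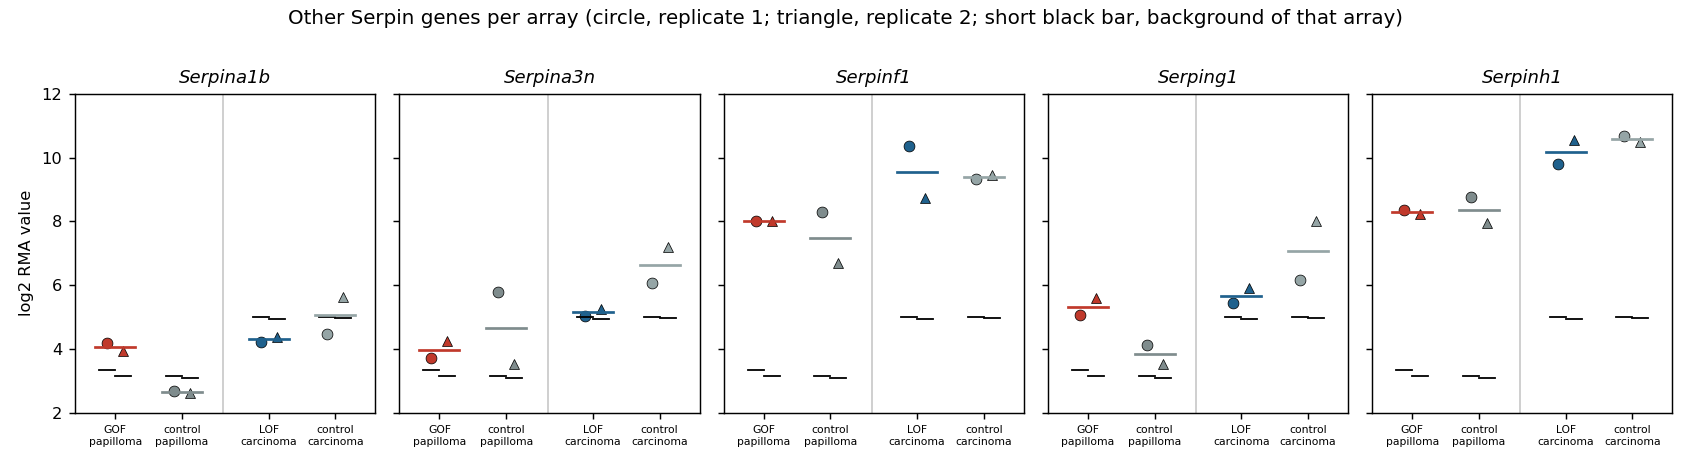
Log2 RMA value (y axis) of Serpina1b, Serpina3n, Serpinf1, Serping1 and Serpinh1 per array and group (x axis; circle, replicate 1; triangle, replicate 2; coloured bar, group mean; short black bar, background of that array). Serping1 is higher on both GOF papilloma arrays (5.07 and 5.58, control 4.13 and 3.52) and, within carcinoma, highest on control replicate 2 (8.01), and Serpinf1 and Serpinh1 overlap between groups in papilloma.

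The remaining well-measured members, which are known for roles other than protease inhibition, overlapped between the groups in both tumours on the probe set that stood for the gene. Serpinf1 encodes PEDF, a secreted factor known for restraining vessel growth. It had 8.014 and 8.002 in GOF papilloma against 8.28 and 6.68 in control papilloma, and 10.36 and 8.73 in LOF carcinoma against 9.34 and 9.46 in control carcinoma. The groups overlapped in both tumours, and the log2 fold changes were 0.53 ± 0.65 (SE, limma adjusted p = 0.789) and 0.15 ± 0.65 (adjusted p = 0.989). Serpinh1 encodes the collagen chaperone of the endoplasmic reticulum. It had 8.35 and 8.22 in GOF papilloma against 8.76 and 7.93 in control papilloma, and 9.80 and 10.54 in LOF carcinoma against 10.66 and 10.50 in control carcinoma. Its log2 fold changes were -0.06 ± 0.33 (adjusted p = 0.972) and -0.41 ± 0.33 (adjusted p = 0.745), and its second probe set gave 0.02 and -0.81. On that probe set the carcinoma groups did not overlap, at 7.59 and 7.99 in LOF against 8.54 and 8.66 in control.

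Replicate arrays differed more in some groups than in others, which bounds what the comparisons can show. In control carcinoma 8 of 40 members (20.0%) differed at least 2-fold between the 2 arrays with at least 1 above background, against 5.15% of all genes. Of these, Serpina1b, Serpina3n, Serpinb1a, Serpinb9b, Serpinb9g, Serpinb11 and Serping1 were higher on replicate 2 and Serpinb2 was lower. In control papilloma 4 members did so (3.25% of all genes), namely Serpina3n, Serpinb2, Serpinb11 and Serpinf1. In LOF carcinoma 4 members did so (2.82% of all genes), namely Serpinb1b, Serpinb9, Serpinb9g and Serpinf1, all lower on replicate 2. In GOF papilloma there were 0 (0.62% of all genes). Some genes were above background in a tumour on 1 or 2 single arrays, and these were picked out after their values were seen. Serpinb9g had 5.46 and 3.62 in LOF carcinoma against 4.55 and 7.47 in control, Serpinb9b had 3.84 and 3.75 against 3.84 and 5.28, and Serpinb1b had 5.60 and 3.91 against 3.71 and 3.69.

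**Figure D4:**
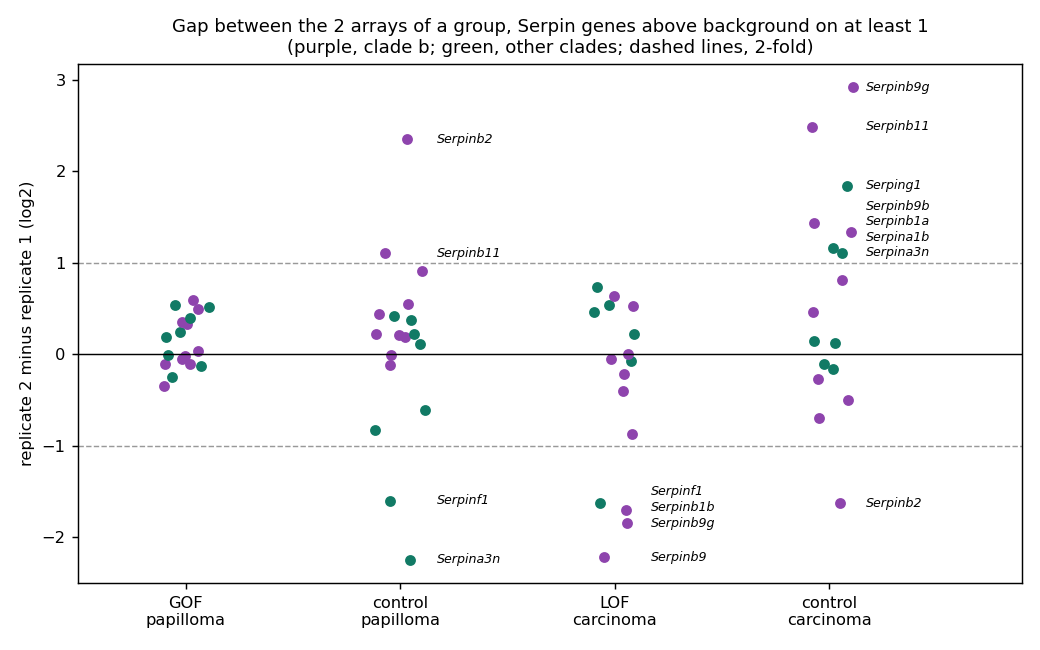
Replicate 2 minus replicate 1 on the log2 scale (y axis) for the Serpin genes above background on at least 1 array of a group, by group (x axis; purple, clade b; green, other clades; dashed lines, 2-fold). Points outside the dashed lines are named: none in GOF papilloma, 4 in control papilloma, 4 in LOF carcinoma, all below, and 8 in control carcinoma, of which 7 are above.

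Proteases and partners of the family were counted from lists chosen for their known links to serpins. Of 16 measured proteases that clade b serpins meet in epidermis or leukocytes, 2 rose in GOF papilloma by limma and 0 in LOF carcinoma. Klk8, a kallikrein protease of the outer epidermis, had 11.25 and 11.21 in GOF papilloma against 7.97 and 8.77 in control papilloma, a log2 fold change of 2.86 ± 0.26 (SE, adjusted p = 0.0196). Ctss (cathepsin S), a lysosomal protease that is abundant in macrophages, had 6.82 and 8.05 in GOF papilloma against 2.99 and 2.80 in control papilloma, a log2 fold change of 4.54 ± 0.54 (adjusted p = 0.0362), beside the macrophage markers above. Prss8 (prostasin), a membrane-anchored epidermal protease, met the descriptive rule in both tumours. It had 5.41 and 4.82 in GOF papilloma against 3.59 and 3.28 in control papilloma, and 5.18 and 5.32 in LOF carcinoma against 5.997 and 8.303 in control carcinoma. The carcinoma log2 fold change of -1.90 was -0.75 without control replicate 2 and -3.05 without replicate 1. Ctsb (cathepsin B) had log2 fold changes of -0.0003 in GOF papilloma and -0.41 in LOF carcinoma.

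In the plasminogen system, which Serpinb2 controls, 0 of 10 genes passed limma in either comparison. Plat (tissue plasminogen activator) was higher by the descriptive rule in GOF papilloma, at 7.13 and 7.16 against 6.06 and 6.34 in control papilloma. Its receptor-side partners with the lowest p-values were Lrp1, an endocytic receptor for serpin complexes (0.82 in GOF papilloma), Plaur, the urokinase receptor (-0.88), S100a10 (-0.38) and Anxa2 (-0.26 in LOF carcinoma), all as log2 fold changes. Of 12 measured clotting genes 0 passed. F3 (tissue factor) was lower by the descriptive rule in GOF papilloma, at 6.53 and 6.21 against 7.16 and 8.25 in control papilloma, with a log2 fold change of -1.34 that was -0.79 without control papilloma replicate 2. Pros1 (protein S) was lower in LOF carcinoma, at 5.53 and 6.60 against 7.55 and 7.26 in control carcinoma, with a log2 fold change of -1.34 that was -0.80 without LOF replicate 1. The thrombin receptor F2r had 6.097 and 5.445 in LOF carcinoma against 6.50 and 8.29 in control carcinoma, a log2 fold change of -1.63 that was -0.73 without control replicate 2 and -2.52 without replicate 1. F7 was below background.

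Of 11 measured protease inhibitors of epidermis outside the serpin family 0 passed. Slpi, a secreted inhibitor of leukocyte elastase, met the descriptive rule in GOF papilloma, at 11.71 and 11.66 against 10.60 and 10.55 in control papilloma (log2 fold change 1.11 ± 0.19 SE, limma adjusted p = 0.0625). Cst6 (cystatin M/E) had a log2 fold change of -1.02 in GOF papilloma, and the membrane inhibitors Spint1 and Spint2 had -0.62 and -0.40 in LOF carcinoma. Of 14 measured collagens and collagen-folding genes that work with Serpinh1, 0 passed. The basement membrane collagens Col4a1 and Col4a2 met the descriptive rule in GOF papilloma, with log2 fold changes of 1.00 and 1.26, and the folding enzymes P4hb and Crtap had 0.81 and 0.47 there. The median log2 fold change of that list was 0.45 in GOF papilloma and -0.16 in LOF carcinoma, beside 0.01 and -0.002 over all genes.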

How the data were processed

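The deposited table held log2 values for 45141 probe sets on 8 arrays, which the authors normalized with RMA, per the labels. The submitters' processing notes name RMA and affy, and versions are not given in the sources used here. RNA from Epcam+ cells sorted by FACS was amplified as cDNA, per the labels' protocols. Papilloma and carcinoma columns lie on different scales and were treated as normalized separately. Groups and replicate numbers came from the source names.

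Probe sets were named from the platform annotation: 28898 had 1 gene symbol, 551 several and 15588 none, and 104 were Affymetrix controls. Of those with 1 symbol, 28689 were matched by Entrez number to RefSeq genes of GRCm38.p6, which gave current names and chromosomes, and all 40 Serpin genes matched. Promoter windows are from RefSeq. The brightest probe set stood for each of the 17098 genes, with no filter on dim signals.

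The test was limma's moderated test (version 3.58.1, R 4.3.3, functions lmFit and eBayes), with 1 mean per group over 8 arrays (4 residual and 2.34 prior degrees of freedom), Benjamini-Hochberg adjustment over all genes and a threshold of 0.05. The procedure was tested on simulated data. A fold is given as a lower bound where a group was below background on both arrays; its signal was then raised on each array to the background where it lay under it. The number of arrays limits the precision.

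Genes named with values were Serpin genes past either rule, those among the 8 highest mean levels of a tumour type, and clade b genes above background on both arrays of a group; of each pathway list, up to 4 with the lowest p were named, and any past a rule. The members and all lists were chosen with earlier results of these data known. Alternatives were 2 filters, other choices of probe set, quantile normalization, median centring, the 4 arrays of a tumour alone, a trended and robust prior, a replicate block and leaving out each array. For genes of the pathway and marker lists, leaving out each array was added after seeing the data, as values with no test.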

Additional observations from a re-analysis of the deposited data

Results flagged for a closer look

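Serping1 was higher on every GOF papilloma array than on any control, and lower on every LOF carcinoma array than on any control. The GOF effect minus the LOF effect was 2.92 on the log2 scale (limma adjusted p = 0.240). It was 3.84 without control carcinoma replicate 1 and 1.997 without replicate 2. Serpina1b showed the same opposite directions, with a difference of 2.16 (limma adjusted p = 0.173), although in carcinoma only 1 array was above background. Its difference was 2.74 without control carcinoma replicate 1 and 1.57 without replicate 2. Serpinb9 did so as well, with a difference of 1.72 (adjusted p = 0.516), 0.610 without LOF carcinoma replicate 2 and 2.83 without LOF carcinoma replicate 1, while 1 of 4 papilloma arrays was above background. None of the 3 differences passed the test with all 8 arrays. The 3 were picked from the 15 named genes because all 4 array pairs ran one way in papilloma and the other way in carcinoma. Serpina5, below background on every array, did so too but was not a named gene. The share of all genes that did so was not counted, so nothing particular to the family is read from it. Picking genes this way fixed the sign of each difference and favoured large ones, so the p-values of the 3 differences lend them no support.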

How the results depend on the processing

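The replicate numbers were not taken to pair arrays: the deviations of same-numbered arrays correlated at 0.0096 in papilloma and 0.122 in carcinoma, with 2 pairs each. With the replicate block, 3 genes were called in GOF papilloma against 115 without it, 0 in LOF carcinoma against 2, and 1 for the difference against 11, and no Serpin gene was. Counts over all genes in GOF papilloma were 186 with the filter on background, 75 with the mean of a gene's probe sets, 202 with the trended and robust prior, and 1 to 264 when 1 array was left out, with 1 without either GOF papilloma array and 264 without either control carcinoma array. In LOF carcinoma they were 0 with probe sets averaged, 0 with the 4 carcinoma arrays alone, 10 with the trended prior, and 0 to 187 when 1 array was left out, the highest without control carcinoma replicate 1. For the difference they were 43 with the filter on background, 3 with probe sets averaged, 4 after quantile normalization, 64 with the trended prior and 1 to 305 when 1 array was left out; the arrays of 1 tumour alone give no such contrast. Serpin genes called by limma in GOF papilloma were 1 (Serpina1b) after quantile normalization and 1 (Serpina1b) with the papilloma arrays alone. When 1 array was left out they were 0 to 1 in GOF papilloma (Serpina1b, without either control carcinoma array), 0 to 2 in LOF carcinoma and 0 to 3 for the difference. The calls in LOF carcinoma (Serpina1b and Serpinb9b) and for the difference (those genes and Serping1) came without control carcinoma replicate 1. By the descriptive rule, the 2 members of GOF papilloma became 1 without cross-hybridizing probe sets and 2 to 5 when 1 array was left out, and the 2 of LOF carcinoma 2 to 9, the highest without control carcinoma replicate 1; Serping1 and Serpina1b stayed among the first and Serpinb6b and Serpina3n among the second each time an array was left out. Of the recomputed values of the 15 named genes, 712 kept direction and side of the threshold, 7 newly passed it and 25 turned direction, none of them called; the causes were not tested. Turned values were -0.13 for Serpinf1 in LOF carcinoma with the mean of probe sets, -0.062 for Serpinb11 in GOF papilloma after quantile normalization and 0.011 for Serpinb6c there after median centring. When 1 array was left out, values that changed sign in GOF papilloma ran over -0.30 to 0.30 for Serpinb6c, -0.54 to 0.57 for Serpinb11, -0.47 to 0.36 for Serpinh1, -1.80 to 0.44 for Serpina3n, -1.47 to 0.88 for Serpinb2 and -0.27 to 1.33 for Serpinf1. In LOF carcinoma they ran over -0.66 to 0.96 for Serpinf1, -1.01 to 0.32 for Serpinb1a, -0.52 to 0.17 for Serpinb6a, -0.068 to 1.56 for Serpinb2 and -0.18 to 0.32 for Serpinb5. For the difference they ran over -2.21 to 0.14 for Serpinb2, -0.33 to 1.92 for Serpina3n, -0.43 to 1.19 for Serpinf1 and -0.065 to 0.76 for Serpinh1. Signal at background limits the 16 members below background on every array, and Serpinb6b, Serpinb9 and Serpina1b on some or all arrays of both tumours.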
